A study of Solanum pimpinellifolium with 72 samples.

Results

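RNAi-SlCLV3 plants, in which a hairpin against the stem cell peptide gene SlCLV3 is transcribed, were compared with the wild type (WT) at the early meristem stage, gene by gene. This stage is a dissected mixture of the meristems of the inflorescence and of the flower with young buds at 2 days post floral initiation (dpi). The comparison comprised 20577 of the 34727 genes in the table, namely those that reached 1 RPKM (reads scaled by the length of the gene and the size of the library) in at least 4 of the 72 libraries of the series. It rested on 4 libraries of RNAi-SlCLV3 and 4 of WT. The same 2 genotypes were also sampled as floral buds at 4dpi and 6dpi, and 4 further genotypes (the lc mutant, the fas mutant, the lc/fas double mutant and HC2, a transgenic complementation of SlCLV3 in fas) were sampled at the same 3 stages with 4 libraries each.

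All plants were in the background of Solanum pimpinellifolium accession LA1589, a wild red-fruited relative of the cultivated tomato. The RNAi-SlCLV3 plants carry a fragment of SlCLV3 in sense and antisense orientation behind the constitutive CaMV 35S promoter, so that the hairpin is made in most tissues and not in the stem cells alone. HC2 plants carry a copy of SlCLV3 with its own promoter, in the fas background. The labels speak of lines in the plural for RNAi-SlCLV3 and for HC2 and do not say which transformant entered which library, so that the effect of the construct and the effect of an insertion or of transformation itself cannot be told apart. The study describes its libraries as biological replicates and the tissue as gathered week by week from a small set of plants per genotype, but nothing says that the 4 libraries of a group came from separate plants. P-values therefore rest on the spread between such pooled samples, part of which may be technical. That spread was estimated within groups over all 72 libraries of the series, not from the early RNAi-SlCLV3 and WT libraries alone.

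CLAVATA3 (CLV3) is a small secreted peptide made by the stem cells at the tip of the shoot and floral meristem. It is perceived by receptor kinases and restrains WUSCHEL (WUS), a homeodomain transcription factor expressed below the stem cells, and WUS in turn promotes stem cell identity and CLV3 transcription. In tomato, weaker CLV3 activity enlarges the meristem and raises the number of floral organs and of locules in the fruit, and SlCLE9 encodes a related peptide of the same CLE family. The comparison asks which transcripts differ in meristems and very young buds when SlCLV3 is targeted.

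The libraries differed in depth. As recovered from the step size of the values, 12.3 to 26.3 M (mega) reads fell in genes in the RNAi-SlCLV3 libraries, against 21.1, 17.3, 2.93 and 7.15 M reads in WT replicates 1 to 4. WT replicate 3 was the shallowest of all 72 libraries, which had a median of 19.1 M reads. The correlation of log2(RPKM + 1) across genes, which are not independent replicates, lay between 0.987 and 0.993 for pairs within RNAi-SlCLV3, between 0.978 and 0.991 within WT and between 0.973 and 0.986 across the genotypes. The median difference over all genes tested was 0.01 on the log2 scale. Differences below are RNAi-SlCLV3 minus WT on the log2(RPKM + 1) scale with their standard error (SE), and a gene is said to have risen or fallen where its Benjamini-Hochberg adjusted p from limma was below 0.05. Levels are RPKM, given per library in the order of replicates 1 to 4.

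SlCLV3 (Solyc11g071380), the targeted gene, fell. It was measured at 2.24, 4.60, 4.58 and 4.16 RPKM in RNAi-SlCLV3, against 6.97, 10.5, 7.83 and 4.66 RPKM in WT. All RNAi-SlCLV3 libraries were below all WT libraries, although the lowest WT library was close to the highest of RNAi-SlCLV3. These levels rested on 46, 110, 54 and 105 recovered reads in RNAi-SlCLV3 and on 141, 174, 22 and 32 in WT. The means were 3.89 ± 1.12 RPKM and 7.48 ± 2.40 RPKM (SD, n = 4 each), a difference of -0.78 ± 0.23 (SE) with an adjusted p of 0.036 by limma. The call was lost without any 1 of RNAi-SlCLV3 replicates 1 and 4 and WT replicates 1, 2 and 3, with differences of -0.82 to -0.60, and held without any 1 of the others. It was also lost by limma with the 8 libraries alone (adjusted p = 0.196). The same held with 0.1 or 0.5 RPKM added before the log2 in place of 1 RPKM (adjusted p = 0.201 and 0.084 by limma). Reads of the hairpin's own SlCLV3 fragment and reads of the endogenous transcript cannot be told apart in a value per gene.

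SlWUS (Solyc02g083950) showed no difference that passed the test at this stage. It was measured at 28.1, 41.3, 26.9 and 36.7 RPKM in RNAi-SlCLV3, against 41.6, 44.7, 18.7 and 23.3 RPKM in WT. The groups overlapped fully, and WT itself was split between its replicates 1 and 2 and its shallower replicates 3 and 4. The difference was 0.12 ± 0.26 (adjusted p = 0.869), and it was -0.39 (adjusted p = 0.498) when WT replicates 3 and 4 were left out, an alternative chosen after seeing the data. In buds, SlWUS was higher in RNAi-SlCLV3 by 1.48 (adjusted p = 6.8e-05) at 4dpi and by 1.41 (adjusted p = 0.00028) at 6dpi, in comparisons with their own libraries. Tested directly by limma, the change of the effect from the early stage did not pass the threshold. It was 1.36 (adjusted p = 0.111) at 4dpi and 1.29 (adjusted p = 0.115) at 6dpi.

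SlCLE9 (Solyc06g074060) rose more than any other gene of the peptide, receptor and WUS list. It was measured at 24.3, 33.2, 19.5 and 34.9 RPKM in RNAi-SlCLV3, against 2.45, 2.33, 2.68 and 2.04 RPKM in WT. The lowest RNAi-SlCLV3 library was thus several times above the highest WT library, and the difference was 3.07 ± 0.23 (adjusted p = 1.5e-16), between 2.95 and 3.47 under every alternative tried. In buds its level was lower in both genotypes, at 9.83 RPKM in RNAi-SlCLV3 and 0.693 RPKM in WT at 4dpi and at 1.60 and 0.138 RPKM at 6dpi, with differences of 2.66 and 1.10. The step between the early stage and 6dpi depended on the pseudocount: it was -1.97 (adjusted p = 0.00021) with 1 RPKM added before the log2 and -0.72 (adjusted p = 0.927) with 0.1 RPKM added. The other 3 members of that list, Solyc04g081590, Solyc04g056640 and Solyc11g064850, differed by -0.01 to 0.06 and did not pass the test.

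**Figure D1:**
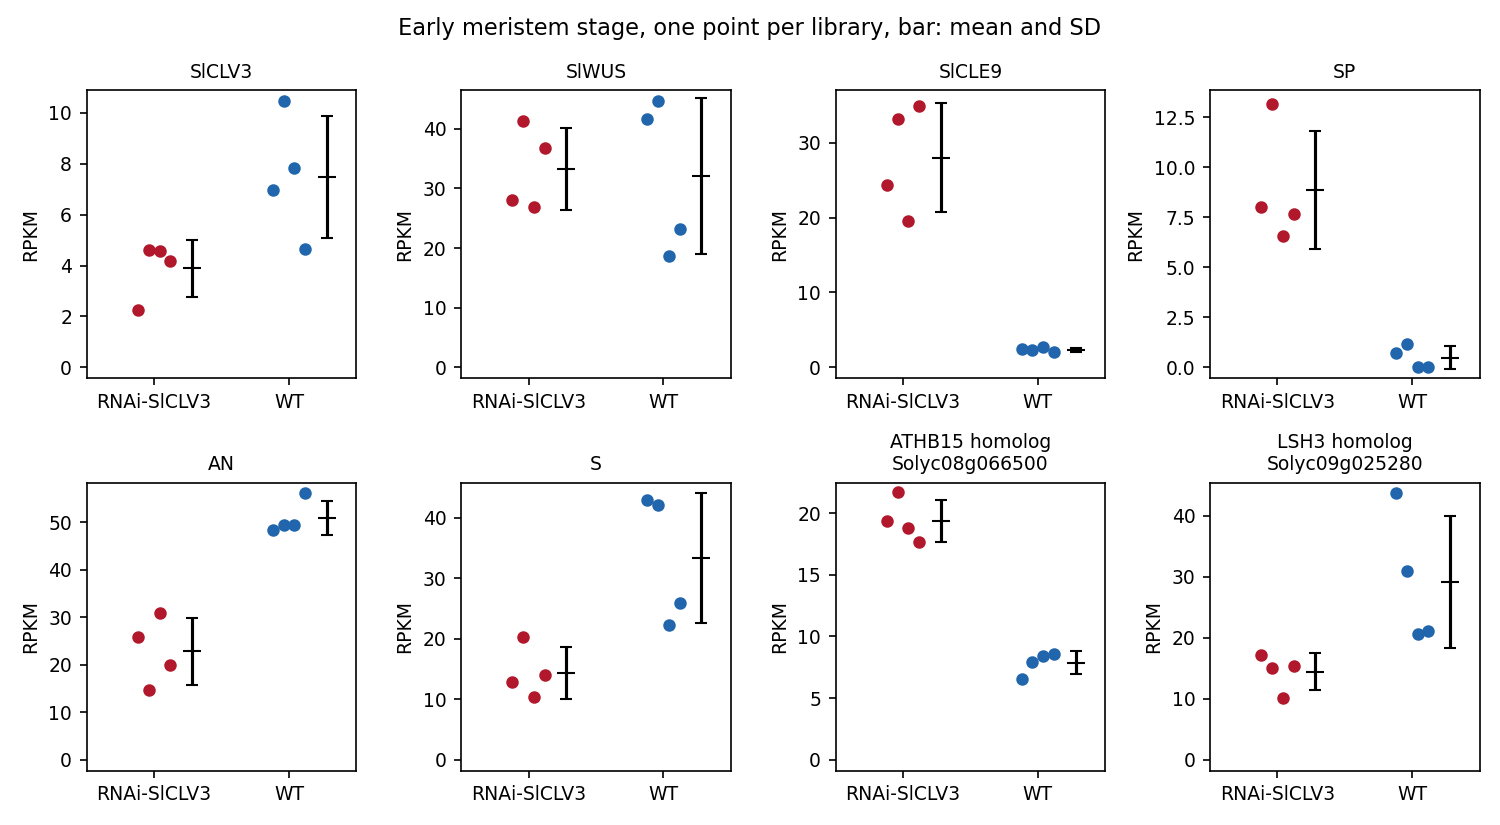
RPKM of 8 genes in the early meristem stage, one point per library, RNAi-SlCLV3 (red) left of WT (blue), with the mean and SD of the 4 libraries as a bar. SlCLE9, SP and the ATHB15 homolog lie higher in all 4 RNAi-SlCLV3 libraries, SlCLV3, AN, S and the LSH3 homolog lie lower in all 4, and SlWUS overlaps.

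Of all genes tested, 943 (4.58%) passed the test, 556 (2.70%) of them higher and 387 (1.88%) lower in RNAi-SlCLV3. The risen genes reached further: 164 rose and 37 fell by at least 2-fold, and 36 rose and 2 fell by at least 4-fold. The median difference was 0.74 among the risen and -0.57 among the fallen genes. In 719 of the 943 the 4 libraries of RNAi-SlCLV3 lay wholly on one side of the 4 of WT. Over all genes tested, 950 (4.62%) had all RNAi-SlCLV3 libraries above all WT libraries and 786 (3.82%) had all of them below. The share that passed the test varied with level, being 8.37% among genes with a mean of 1 to 5 RPKM and 2.66% among genes of 100 RPKM or more. At an unadjusted p below 0.05, 1824 genes (8.86%) were higher and 1467 (7.13%) lower. A fit with the 8 early libraries alone, whose spread is then estimated without the other groups, called 255 genes. Of the list members described below it called 14, against 46, and 37 of 70 named genes lost their call in it.

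**Figure D2:**
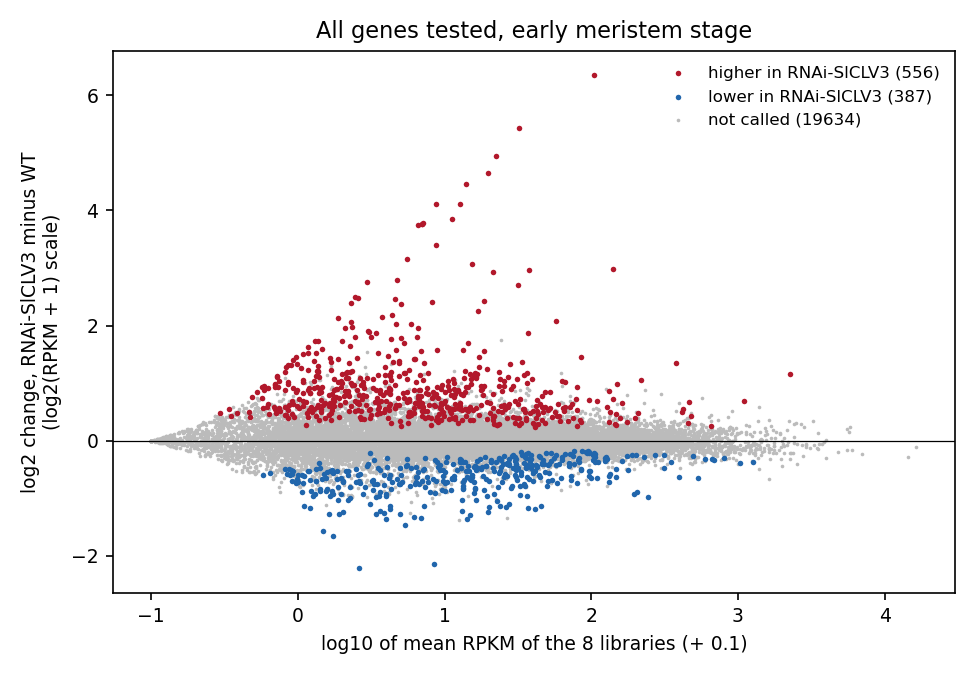
Difference RNAi-SlCLV3 minus WT (log2 scale) of each gene tested against the log10 of its mean RPKM over the 8 libraries, with the 556 risen genes in red, the 387 fallen genes in blue and the others in grey. The risen genes extend past 6 on the log2 scale, while the lowest fallen gene lies at -2.22.

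Genes that set inflorescence and floral identity changed in both directions. In tomato, flower identity depends on ANANTHA (AN), an F-box protein that pairs with UFO of Arabidopsis, while COMPOUND INFLORESCENCE (S), a WOX9 homeodomain factor, acts earlier in the maturing meristem. SELF PRUNING (SP) is an antiflorigen that keeps shoot meristems vegetative and pairs with ATC of Arabidopsis. Of 12 such genes, 2 rose and 2 fell, against 2.70% and 1.88% of all genes tested, and 8 did not pass the test. The median difference was -0.20. The counts of this list were the same in every fit that left out 1 library.

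SP (Solyc06g074350) was measured at 8.02, 13.2, 6.57 and 7.68 RPKM in RNAi-SlCLV3, against 0.718, 1.17, 0 and 0 RPKM in WT. It was thus well above the WT range in every RNAi-SlCLV3 library. The WT values rested on 3, 4, 0 and 0 recovered reads and those of RNAi-SlCLV3 on 34, 65, 16 and 40, so that the fitted difference of 2.78 ± 0.45 (adjusted p = 1.0e-05) depends on the pseudocount. Solyc01g092950, which pairs with the flowering-time MADS-box gene AGL20 (SOC1) of Arabidopsis, had 28.3, 35.3, 30.0 and 37.7 RPKM in RNAi-SlCLV3, against 16.0, 13.2, 15.5 and 15.3 RPKM in WT. Its groups were apart and it rose by 1.07 ± 0.15 (adjusted p = 4.0e-07).

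AN (Solyc02g081670) was measured at 25.9, 14.7, 30.9 and 19.9 RPKM in RNAi-SlCLV3, against 48.4, 49.3, 49.4 and 56.2 RPKM in WT. The WT libraries were close together, and every RNAi-SlCLV3 library lay below them, with a difference of -1.17 ± 0.15 (adjusted p = 6.4e-08). S (Solyc02g077390) had 12.8, 20.3, 10.3 and 14.0 RPKM in RNAi-SlCLV3, against 42.9, 42.2, 22.2 and 25.9 RPKM in WT. Its groups were also apart, although the WT libraries were again split between replicates 1 and 2 and replicates 3 and 4, and it fell by 1.14 ± 0.23 on the log2 scale (adjusted p = 0.00064). The call of S was lost with the 8 libraries alone (adjusted p = 0.075 by limma). Solyc05g056620, the MADS-box gene MACROCALYX (MC) of sepal size and the pedicel abscission zone, averaged 73.4 RPKM in RNAi-SlCLV3 and 86.8 RPKM in WT (adjusted p = 0.544). MFT and SPL homologs (Solyc02g079290, Solyc10g078700 and Solyc02g077920) differed by -0.25 to 0.07 and did not pass the test either.

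Genes of organ boundaries fell where they passed the test. The boundary between a meristem and its organs, or between organs, is marked by slow growth and by factors such as LATERAL SUPPRESSOR (LAS), a GRAS protein needed for side shoots, the BLADE-ON-PETIOLE (BOP) co-regulators, ALOG-family LSH proteins and the NAC factor CUC2. Of 10 boundary genes 5 fell and none rose by limma, against 1.88% and 2.70% of all genes tested. The other 5 did not pass the test, and the median was -0.49 beside 0.01 over all genes tested. At an unadjusted p below 0.05 by limma the counts were 8 lower and 0 higher, against 7.13% and 8.86% of all genes. The summed level of the 10 genes was 183, 190, 185 and 194 RPKM in the RNAi-SlCLV3 libraries, against 293, 288, 243 and 256 RPKM in WT. The sums did not overlap, and 1 of the 10 genes was at 0 in a library.

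The LSH3 homolog Solyc09g025280 had 17.1, 15.1, 10.05 and 15.4 RPKM in RNAi-SlCLV3, against 43.8, 31.0, 20.7 and 21.2 RPKM in WT, a difference of -0.93 ± 0.20 (adjusted p = 0.0013). The BOP2 homolog Solyc04g040220 had 6.04, 8.56, 7.57 and 6.48 RPKM in RNAi-SlCLV3, against 14.4, 16.8, 9.08 and 11.2 RPKM in WT, a difference of -0.74 ± 0.17 (adjusted p = 0.0037). Both genes had groups that were apart, and both calls held in every fit that left out 1 library, but not with the 8 libraries alone (Solyc09g025280, adjusted p = 0.127, and Solyc04g040220, adjusted p = 0.105). The LSH6 homolog Solyc02g069510 averaged 11.3 ± 1.95 RPKM in RNAi-SlCLV3 and 20.8 ± 2.90 RPKM in WT (SD, n = 4 each). The LAS homolog Solyc07g066250 averaged 14.1 ± 1.83 and 22.2 ± 4.60 RPKM, and the BOP2 homolog Solyc10g079460 averaged 19.6 ± 1.00 and 28.8 ± 9.15 RPKM, RNAi-SlCLV3 before WT. These 3 calls were less firm: leaving out 1 library took Solyc02g069510 (RNAi-SlCLV3 replicate 4 or WT replicate 3), Solyc07g066250 (RNAi-SlCLV3 replicate 2, 3 or 4 or WT replicate 3 or 4) and Solyc10g079460 (RNAi-SlCLV3 replicate 2, 3 or 4 or WT replicate 1, 2 or 4) past the threshold, to adjusted p of up to 0.061, 0.166 and 0.219. The CUC2 homolog Solyc07g062840 averaged 15.4 RPKM in RNAi-SlCLV3 and 22.4 RPKM in WT (adjusted p = 0.060).

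YABBY genes, which encode zinc finger and HMG-like factors of the outer (abaxial) side of leaves and floral organs, were split. Of 8 members, 4 fell and 1 rose, against 1.88% and 2.70% of all genes tested, and 3 did not pass the test. The median was -0.56. The FIL homolog Solyc01g091010 had 140, 100, 186 and 108 RPKM in RNAi-SlCLV3, against 168, 235, 326 and 290 RPKM in WT, a difference of -0.93 ± 0.19 (adjusted p = 0.00062). Its groups overlapped in that WT replicate 1 lay below RNAi-SlCLV3 replicate 3. The YABBY5 homolog Solyc07g008180 had 43.0, 33.2, 55.7 and 41.9 RPKM in RNAi-SlCLV3, against 59.0, 78.0, 86.6 and 67.9 RPKM in WT, with groups apart and a difference of -0.74 ± 0.12 (adjusted p = 1.7e-05). Solyc08g079100, paired with YAB3, fell as well (-0.94, adjusted p = 0.00011), and so did Solyc06g073920 (-0.62, adjusted p = 0.0235), a call that was lost without RNAi-SlCLV3 replicate 2 or 4 or WT replicate 3 or 4 (adjusted p up to 0.241).

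The YABBY gene that rose was Solyc01g010240, paired with CRABS CLAW (CRC), a factor of carpels and nectaries in Arabidopsis. It had 7.48, 10.4, 10.5 and 15.7 RPKM in RNAi-SlCLV3, against 3.84, 4.78, 3.07 and 5.28 RPKM in WT. Its groups were apart, with a difference of 1.17 ± 0.30 (adjusted p = 0.0086), and without RNAi-SlCLV3 replicate 4 the adjusted p was 0.062. SlYABBY2b (Solyc11g071810) averaged 30.5 RPKM in RNAi-SlCLV3 and 44.0 RPKM in WT (adjusted p = 0.067). Without both WT replicates 3 and 4, as chosen after seeing the data, 1 YABBY gene fell and none rose, and 3 boundary genes fell. With the 8 libraries alone no YABBY gene was called lower and 1 was called higher, and 1 boundary gene fell.

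The YABBY and boundary lists mark organ primordia and their borders, so the tissue makeup of the samples was measured beside them. The summed YABBY level was 274, 216, 354 and 240 RPKM in RNAi-SlCLV3, against 324, 429, 578 and 515 RPKM in WT, and these ranges overlapped. The meristem markers SlWUS, SlCLV3 and TKN2 summed to 204 to 262 RPKM in RNAi-SlCLV3 and to 191 to 292 RPKM in WT. SlCLV3 is the targeted gene and SlWUS the gene it restrains, so neither is an independent marker here. Most of the sum was TKN2, with a mean of 198 RPKM in RNAi-SlCLV3 and 201 RPKM in WT. The 5 floral organ MADS-box markers summed to 38.2 to 52.0 RPKM in RNAi-SlCLV3 and to 42.5 to 62.7 RPKM in WT. They join TAG1, with a higher mean in RNAi-SlCLV3, and B class genes, which had negative differences, none past the test. In bulk samples, fewer cells of a type and less RNA per cell cannot be told apart, and the part of tissue makeup in these lists was not tested.

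Bud age was examined with 2 lists of genes that changed at least 4-fold between the early stage and 4dpi in the lc, fas and lc/fas mutants, whose libraries are in neither group. The 133 genes raised at 4dpi had a mean log2(RPKM + 1) of 2.36 to 3.03 in early RNAi-SlCLV3 libraries and of 2.40 to 2.97 in early WT libraries, both far below the 4.81 to 5.27 of the 4dpi libraries. The median difference of this list was -0.12, with 16 risen and 13 fallen genes, against 2.70% and 1.88% of all genes tested. The 57 genes lowered at 4dpi had a mean of 3.54 to 4.00 in RNAi-SlCLV3 and of 3.92 to 4.36 in WT, against 1.42 to 1.71 at 4dpi. Of these, 12 fell and 1 rose, against 1.88% and 2.70% of all genes tested. In this list 49 had a negative difference, and the median was -0.24. The ranges of the 2 genotypes overlapped in both lists. The part of bud age in the gene changes was not tested.

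Among polarity factors, the clearest rise was that of both homologs of ATHB15 (CORONA), class III HD-ZIP factors that in Arabidopsis restrict meristem size and pattern vascular tissue. Solyc08g066500 had 19.4, 21.7, 18.8 and 17.7 RPKM in RNAi-SlCLV3, against 6.52, 7.93, 8.40 and 8.60 RPKM in WT. Solyc12g044410, expressed at a higher level, had 189, 225, 184 and 204 RPKM in RNAi-SlCLV3, against 96.5, 109, 101 and 95.4 RPKM in WT. In both, the 4 libraries of each genotype were close together and the groups were far apart, with differences of 1.21 ± 0.14 (adjusted p = 3.1e-09) and 0.99 ± 0.14 (adjusted p = 4.7e-07). The PHABULOSA homolog Solyc02g024070, of the same HD-ZIP class, moved the other way, with 33.4 ± 3.04 RPKM in RNAi-SlCLV3 and 45.4 ± 5.14 RPKM in WT (-0.43 ± 0.11, adjusted p = 0.0129). Its call was lost without RNAi-SlCLV3 replicate 1 or WT replicate 2 (adjusted p up to 0.065). Of the 8 polarity genes 2 thus rose and 1 fell, against 2.70% and 1.88% of all genes tested. The other 5 of the 8 polarity genes did not pass the test, among them 2 REVOLUTA homologs (Solyc11g069470 and Solyc12g020120) and 2 KANADI homologs (Solyc11g011770 and Solyc06g066340), with differences of -0.22 to 0.26.

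Auxin genes rose where they passed the test. Of 14 genes of auxin transport, synthesis and response 4 rose and none fell by limma, against 2.70% and 1.88% of all genes tested. The median was 0.02. At an unadjusted p below 0.05 by limma the counts were 5 higher and 0 lower, against 8.86% and 7.13% of all genes. The IAA7 homolog Solyc06g053830, a repressor of auxin response, had 61.5, 67.3, 75.8 and 63.0 RPKM in RNAi-SlCLV3, against 37.6, 36.2, 48.3 and 27.5 RPKM in WT. The ARF8 homolog Solyc02g037530, an auxin response factor of fruit set in Arabidopsis, had 22.9, 24.1, 24.0 and 21.9 RPKM in RNAi-SlCLV3, against 8.17, 11.5, 13.4 and 14.0 RPKM in WT. Neither gene had overlapping groups, and the differences were 0.84 ± 0.15 (adjusted p = 9.7e-05) and 0.95 ± 0.14 (adjusted p = 2.7e-06). The ETTIN homolog Solyc02g077560 rose by 0.33 (adjusted p = 0.016), and the GH3.6 homolog Solyc07g053030, an auxin-conjugating enzyme at low level, averaged 1.86 ± 0.66 RPKM in RNAi-SlCLV3 and 0.54 ± 0.45 RPKM in WT (adjusted p = 0.0068). These 2 calls were lost without RNAi-SlCLV3 replicate 2 or 4 or WT replicate 1 (Solyc02g077560, adjusted p up to 0.150) and without RNAi-SlCLV3 replicate 4 or WT replicate 3 (Solyc07g053030, up to 0.072). The YUC4 homolog Solyc06g065630, an auxin synthesis enzyme, averaged 47.5 RPKM in RNAi-SlCLV3 and 34.2 RPKM in WT (adjusted p = 0.101).

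Cytokinin and gibberellin genes fell where they passed the test. By limma 4 of 13 fell and none rose, against 1.88% and 2.70% of all genes tested, and the median was -0.25. At an unadjusted p below 0.05 by limma the counts were 5 lower and 0 higher, against 7.13% and 8.86% of all genes. The GA20OX1 homolog Solyc06g035530, a gibberellin synthesis enzyme, had 7.04, 8.52, 7.81 and 6.15 RPKM in RNAi-SlCLV3, against 20.3, 21.1, 20.4 and 13 RPKM in WT, a difference of -1.22 ± 0.25 (adjusted p = 0.00064). The GA2OX2 homolog Solyc02g070430, which inactivates gibberellin, had 21.9, 33.0, 24.1 and 34.0 RPKM in RNAi-SlCLV3, against 67.1, 69.9, 52.1 and 61.3 RPKM in WT, a difference of -1.14 ± 0.27 (adjusted p = 0.0038). Both had groups apart, so an enzyme of synthesis and one of breakdown were lower in the same libraries. A second GA20OX1 homolog, Solyc03g006880, averaged 0.70 ± 0.13 RPKM in RNAi-SlCLV3 and 1.46 ± 0.30 RPKM in WT (adjusted p = 0.0131), which became 0.076 without RNAi-SlCLV3 replicate 4 or WT replicate 3 at most. The type-A response regulator ARR6 homolog Solyc03g113720, a cytokinin-induced repressor of cytokinin signalling, had 17.6, 26.5, 15.7 and 23.1 RPKM in RNAi-SlCLV3, against 42.4, 47.7, 25.3 and 32.0 RPKM in WT. Its groups overlapped at 1 library each and it fell by 0.79 ± 0.16 on the log2 scale (adjusted p = 0.00085). With the 8 libraries alone the call of Solyc03g113720 was lost (adjusted p = 0.147 by limma).

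Floral MADS-box genes, which specify sepals, petals, stamens and carpels, were mostly lower or did not pass the test. Of 16, 3 fell and 1 rose, against 1.88% and 2.70% of all genes tested, and the median was -0.26. The SEPALLATA homolog Solyc03g114840 (EJ2) had 46.4, 30.9, 51.9 and 38.1 RPKM in RNAi-SlCLV3, against 55.9, 65.8, 70.6 and 53.5 RPKM in WT, with groups apart and a difference of -0.56 ± 0.10 (adjusted p = 0.00014). MBP20 (Solyc02g089210), of the AP1 and FRUITFULL clade, had 73.4, 117, 104 and 98.3 RPKM in RNAi-SlCLV3, against 48.7, 62.8, 66.1 and 57.2 RPKM in WT, with groups apart and a difference of 0.72 ± 0.17 (adjusted p = 0.0040). With the 8 libraries alone no floral MADS-box gene was called by limma (EJ2, adjusted p = 0.158, and MBP20, adjusted p = 0.059). The SEPALLATA homologs Solyc02g089200 (TM29; -0.59, adjusted p = 0.0185) and Solyc12g038510 (J2; -0.34, adjusted p = 0.0274) fell with overlapping groups. Their calls were lost without RNAi-SlCLV3 replicate 2 or 4 or WT replicate 3 (Solyc02g089200, adjusted p up to 0.186) and without RNAi-SlCLV3 replicate 1 or 2 or WT replicate 2 or 3 (Solyc12g038510, up to 0.207). TAG1 (Solyc02g071730), the carpel and stamen gene of the AGAMOUS type, averaged 3.25 RPKM in RNAi-SlCLV3 and 1.26 RPKM in WT, which did not pass the test (adjusted p = 0.074). The B class genes of petals and stamens, Solyc04g081000, Solyc02g084630, Solyc08g067230 and Solyc06g059970, differed by -1.26 to -0.20, and none passed the test.

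Most general meristem and growth genes did not pass the test. Of 13, 1 rose and 2 fell, against 2.70% and 1.88% of all genes tested, and the median was -0.08. Solyc11g006230, a homolog of GIF1 (AN3), the transcriptional partner of growth regulating factors, had 410, 688, 534 and 667 RPKM in RNAi-SlCLV3, against 347, 413, 298 and 368 RPKM in WT. Its groups overlapped only where RNAi-SlCLV3 replicate 1 lay below WT replicate 2, and it rose by 0.67 ± 0.14 (adjusted p = 0.00088). The call of Solyc11g006230 was lost with the 8 libraries alone (adjusted p = 0.115 by limma). The KNOX gene TKN2 (Solyc02g081120), a general marker of meristem tissue, averaged 198 RPKM in RNAi-SlCLV3 and 201 RPKM in WT, a difference of -0.01 (adjusted p = 0.991). The GRF1 homolog Solyc02g092070 (-0.37, adjusted p = 0.0273) and Solyc01g100510 (-0.41, adjusted p = 0.0484) fell. The first call was lost without RNAi-SlCLV3 replicate 3 or 4 or WT replicate 1 or 2 (Solyc02g092070, adjusted p up to 0.150), and the second without any 1 library other than WT replicate 4 (Solyc01g100510, up to 0.165).

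Photosynthetic genes rose where they passed the test. Of 10 genes of light harvesting and Rubisco activation, 3 rose and none fell by limma, against 2.70% and 1.88% of all genes tested. At an unadjusted p below 0.05 by limma 5 were higher and 0 lower, against 8.86% and 7.13% of all genes. In this list 9 had a positive difference and the median was 0.42. Their summed level was 1474, 1277, 1747 and 1151 RPKM in RNAi-SlCLV3, against 1018, 1092, 1146 and 1058 RPKM in WT, and no gene of the list was at 0 in any library. The lowest sum of RNAi-SlCLV3 was thus just above the highest of WT. The Rubisco activase homolog Solyc09g011080 had 24.8, 30.3, 18.5 and 27.9 RPKM in RNAi-SlCLV3, against 6.81, 10.6, 5.33 and 13.1 RPKM in WT, a difference of 1.45 ± 0.32 (adjusted p = 0.0017). LHCA4 (Solyc06g069730) rose by 1.11 (adjusted p = 0.0348) and the LHCB1 homolog Solyc02g070940 by 0.50 (adjusted p = 0.0218), light-harvesting proteins of photosystems I and II. Leaving out 1 library ended the call of Solyc06g069730 for all but RNAi-SlCLV3 replicate 4 and WT replicate 4 (adjusted p up to 0.197), and that of Solyc02g070940 for RNAi-SlCLV3 replicates 1 and 3 and WT replicate 2 (up to 0.133). The part of green bud or leaf tissue in this list was not tested.

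Lipid and wall genes gave smaller sets. Of 14 sterol synthesis genes 12 had a positive difference, with a median of 0.25, but only SMO2-1 (Solyc06g005750), a sterol demethylating oxidase, passed the test, at 530, 499, 642 and 521 RPKM in RNAi-SlCLV3, against 333, 396, 410 and 507 RPKM in WT (0.42 ± 0.09, adjusted p = 0.00073). Over all genes tested 2.70% rose. Without WT replicates 3 and 4 it was joined by others, 5 of 14 in all, where 515 of all 20577 genes tested rose. In a fit with same-numbered replicates as a block, 6 of 14 rose, although the replicate numbers are not stated to pair the samples. That fit also called more genes in general, with 966 of all 20577 risen. With the 8 libraries alone no sterol gene was called (SMO2-1, adjusted p = 0.201 by limma). Of 7 cuticle genes all had a negative difference (median -0.46) and 2 fell, against 1.88% of all genes tested. WIN1 (Solyc12g009490), an activator of cuticle synthesis, had 0.674, 1.30, 0.367 and 1.03 RPKM in RNAi-SlCLV3, against 2.48, 2.81, 1.85 and 2.27 RPKM in WT, a difference of -0.88 ± 0.15 (adjusted p = 2.0e-05). CER6 (Solyc02g085870), a condensing enzyme of wax synthesis, had 6.28, 4.74, 9.42 and 5.94 RPKM in RNAi-SlCLV3, against 10.1, 10.7, 14.9 and 14.7 RPKM in WT, a difference of -0.85 ± 0.15 (adjusted p = 7.6e-05). In both cuticle genes the groups were apart. With the 8 libraries alone neither was called by limma (WIN1, adjusted p = 0.053, and CER6, adjusted p = 0.089).

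In phenylpropanoid synthesis, the route to lignin and flavonoids, 3 of 20 genes rose and none fell by limma, against 2.70% and 1.88% of all genes. At an unadjusted p below 0.05 by limma 4 were higher and 3 lower, against 8.86% and 7.13% of all genes. The median was 0.15. FAH1 (Solyc02g084570), a hydroxylase of lignin precursors, averaged 2.66 ± 0.23 RPKM in RNAi-SlCLV3 and 1.31 ± 0.30 RPKM in WT (0.67, adjusted p = 7.5e-05). The coenzyme A ligase 4CL2 (Solyc06g068650) rose by 0.64 (adjusted p = 0.0019), a call lost with the 8 libraries alone (adjusted p = 0.236 by limma). The alcohol dehydrogenase CAD4 (Solyc01g107590) rose by 0.55 (adjusted p = 0.035), a call lost without RNAi-SlCLV3 replicate 1 or 3 or WT replicate 1, 2 or 3 (adjusted p up to 0.222). Of 9 jasmonate genes 1 rose, the lipoxygenase LOX1 homolog Solyc01g099210, at 17.2 ± 3.97 RPKM in RNAi-SlCLV3 and 9.34 ± 1.30 RPKM in WT (0.80, adjusted p = 0.00011). Over all genes tested 2.70% rose. The LOX1 call was lost with the 8 libraries alone (adjusted p = 0.073 by limma). Of 17 histone and cell cycle genes 2 fell, an H2B homolog (Solyc06g005390; -0.64, adjusted p = 0.0065) and the kinesin gene ZWI (Solyc12g082730; -0.37, adjusted p = 0.0185), and 15, among them the B-type cyclin Solyc11g030550 and the kinase CDKB1;2 homolog Solyc10g074720, did not pass the test. Over all genes tested 1.88% fell. The H2B call was lost with the 8 libraries alone (adjusted p = 0.077 by limma). The ZWI call (Solyc12g082730) was lost without RNAi-SlCLV3 replicate 3 or WT replicate 3 (adjusted p up to 0.123). None of 4 clock genes passed the test by limma, adjusted or not, and their differences ran from -0.09 to 0.19.

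**Figure D3:**
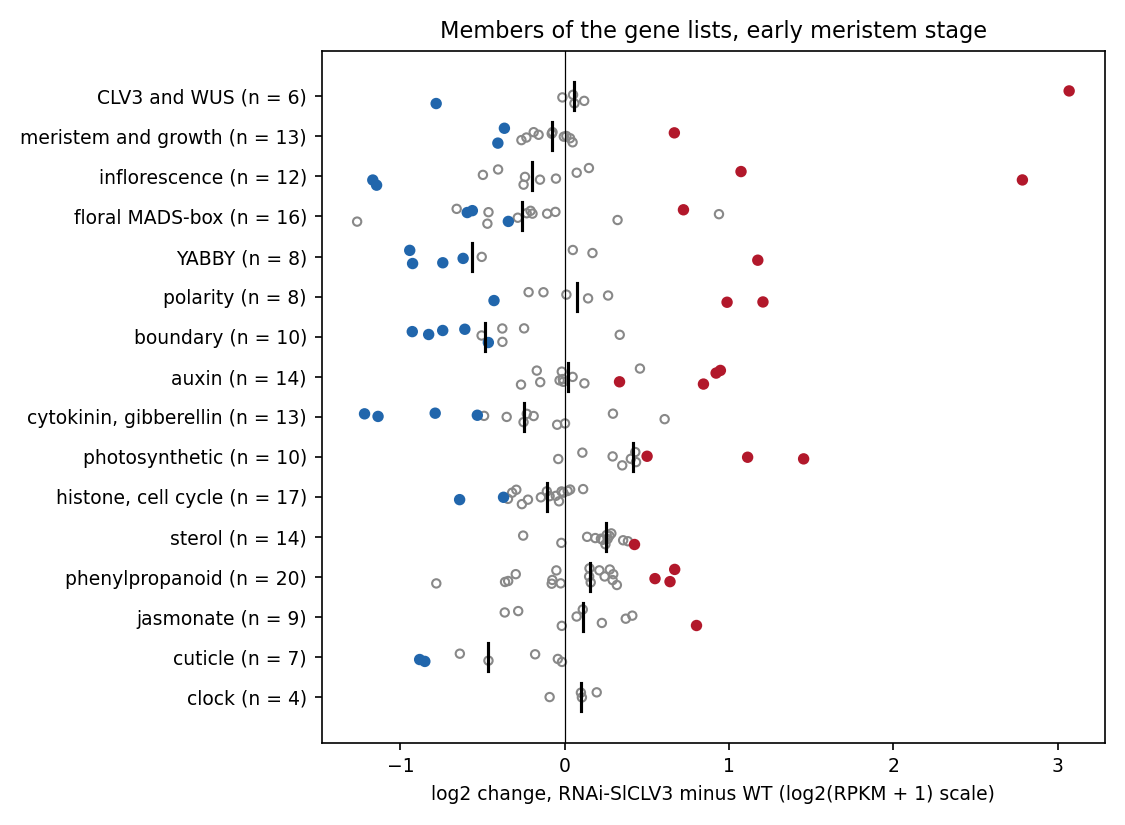
Difference RNAi-SlCLV3 minus WT (log2 scale) at the early stage for each member of 16 gene lists, red where it rose, blue where it fell and open grey where it did not pass the test, with the list's median as a black bar. The YABBY, boundary and cuticle medians lie lowest (-0.56, -0.49 and -0.46) and the photosynthetic median highest (0.42).

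The most changed genes overall were mostly outside these lists. Among called genes that are paired with an Arabidopsis locus, have groups apart and average at least 2 RPKM in either genotype, Solyc07g061750, an ankyrin repeat protein gene, rose most. It had 35.3, 39.7, 50.6 and 51.7 RPKM in RNAi-SlCLV3, against 0.167, 1.59, 0 and 0.493 RPKM in WT, a difference of 4.94 ± 0.20 (adjusted p = 3.8e-29). It was thus abundant in all 4 RNAi-SlCLV3 libraries and nearly undetected in WT, where it rested on 5, 39, 0 and 5 recovered reads. The neighbouring identifiers Solyc07g061760 and Solyc07g061770, named after their values were seen, averaged 27.3 and 14.0 RPKM in RNAi-SlCLV3, against 0.295 and 0.0668 RPKM in WT.

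Protease inhibitors stood among the other top genes. The proteinase inhibitor gene Solyc09g089530 had 68.6, 60.1, 74.9 and 64.8 RPKM in RNAi-SlCLV3, against 8.20, 12.1, 5.97 and 5.86 RPKM in WT (2.96 ± 0.32, adjusted p = 2.2e-10). The Kunitz-type inhibitor gene Solyc03g098710 had 86.5, 49.0, 138 and 106 RPKM in RNAi-SlCLV3, against 15.3, 22.1, 20.2 and 25.1 RPKM in WT (2.07 ± 0.29, adjusted p = 5.4e-07). Every RNAi-SlCLV3 library of both genes was above the highest WT library. Solyc11g072110, an oxygenase of the F6'H2 type, which makes coumarins in Arabidopsis, averaged 14.2 ± 3.70 RPKM in RNAi-SlCLV3 and 1.89 ± 0.67 RPKM in WT (2.40 ± 0.21, adjusted p = 2.0e-13). Solyc12g056480, paired with the stay-green gene NYE1 of chlorophyll breakdown, averaged 13.9 ± 4.83 RPKM in RNAi-SlCLV3 and 3.82 ± 0.53 RPKM in WT (1.57 ± 0.20, adjusted p = 3.5e-08). An aspartic proteinase homolog (Solyc09g082760, 1.87), a jmjC domain gene (Solyc09g091490, 1.72), Solyc06g054640 (1.88) and Solyc03g121850 (1.96) completed the risen genes of this kind together with SlCLE9, SP and Rubisco activase. The call of Solyc09g082760 was lost with the 8 libraries alone (adjusted p = 0.094 by limma).

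Among the fallen genes of the same kind were AN, S, the GA20OX1 homolog and the GA2OX2 homolog given above, and 2 atypical bHLH genes without DNA binding of their own, which in Arabidopsis promote cell elongation. Solyc05g007210, paired with KIDARI, had 22.3, 30.8, 19 and 27.0 RPKM in RNAi-SlCLV3, against 74.5, 66.6, 42.0 and 49.2 RPKM in WT (-1.18 ± 0.26, adjusted p = 0.0020). Solyc02g087860, paired with PRE1, had 1.79, 1.75, 3.96 and 1.59 RPKM in RNAi-SlCLV3, against 5.20, 7.14, 5.94 and 5.60 RPKM in WT (-1.14 ± 0.28, adjusted p = 0.0056). Both sets of groups were apart. Solyc09g007260, paired with RAP2.7, an AP2-type repressor of flowering in Arabidopsis, had 151, 141, 189 and 166 RPKM in RNAi-SlCLV3, against 254, 362, 285 and 389 RPKM in WT (-0.98 ± 0.15, adjusted p = 3.1e-06). A glycosyltransferase gene (Solyc04g008330, -1.03), an NPH3-family gene (Solyc11g040040, -1.13) and Solyc02g093610 (-1.35), Solyc02g080510 (-0.96) and Solyc02g090120 (-1.58) made up the rest. Solyc02g090120 was measured at 0.152 ± 0.218 RPKM in RNAi-SlCLV3 and 2.63 ± 1.57 RPKM in WT on at most 9 reads a library, and its call was lost without RNAi-SlCLV3 replicate 1 or 3 or WT replicate 4 (adjusted p up to 0.084).

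Genes with no Arabidopsis pairing at hand moved further still. Solyc03g044840 had 174, 227, 214 and 212 RPKM in RNAi-SlCLV3, against 0.583, 8.81, 0.381 and 0.937 RPKM in WT, a difference of 6.35 ± 0.32 (adjusted p = 1.5e-24). Solyc01g057390 had 51.3, 78.8, 67.0 and 57.2 RPKM in RNAi-SlCLV3, against 0.187, 3.08, 0 and 0 RPKM in WT, a difference of 5.43 ± 0.26 (adjusted p = 3.2e-25). In both, WT replicate 2 stood above the other WT libraries. Over the 36 genes that rose at least 4-fold, WT replicate 2 was the highest WT library in 25, with a median level of 1.49 RPKM, against 0 to 0.380 RPKM in the other WT libraries. What sets that library apart was not tested. In the other direction, Solyc06g008710 had 0.0965, 0.414, 0.168 and 0.314 RPKM in RNAi-SlCLV3, against 3.92, 4.77, 5.64 and 4.91 RPKM in WT (-2.22 ± 0.18, adjusted p = 3.8e-15). Solyc10g007960 had 0.746, 3.59, 1.04 and 5.59 RPKM in RNAi-SlCLV3, against 6.97, 18.1, 13.1 and 18.3 RPKM in WT (-2.15 ± 0.27, adjusted p = 3.5e-08). The call of Solyc10g007960 was lost with the 8 libraries alone (adjusted p = 0.064 by limma). Among the 36, Solyc00g011550 and Solyc03g042510 had identical values in every library, so that reads may be shared between copies and each is uncertain.

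Some of the early differences were also seen in the buds. At 4dpi 712 genes (3.46%) and at 6dpi 257 genes (1.25%) passed the test between RNAi-SlCLV3 and WT, in libraries of their own. Of the early genes, 298 were also called at 4dpi, which is 31.6% of the early and 41.9% of the 4dpi genes, and all 298 had the same direction. At 6dpi 138 had the same direction, which is 14.6% of the early and 53.7% of the 6dpi genes, and 1 had the opposite. At all 3 stages 112 genes rose and 9 fell, and 627 genes were called early and at neither bud stage. That a gene was called at one stage and not at another does not show that its effect differed. Tested directly, the effect differed from the early one in 35 genes (0.170%) at 4dpi and in 70 genes (0.340%) at 6dpi.

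The named genes differed in whether the early difference was also seen in the buds. Solyc03g044840 stayed high, with a difference of 6.00 at 4dpi and 4.96 at 6dpi, and so did Solyc03g121850 (1.60 and 1.44), while Solyc06g008710 stayed low (-2.05 and -1.85). The ATHB15 homolog Solyc08g066500 was at 0.86 at 4dpi and 0.26 at 6dpi, and its effect at 6dpi was lower than the early one by its own test (-0.94, adjusted p = 0.0132), whereas the other ATHB15 homolog, Solyc12g044410, was at 1.13 at 4dpi (adjusted p = 1.9e-08) and 0.59 at 6dpi (adjusted p = 0.0097). The stay-green homolog Solyc12g056480 was at 0.03 at 4dpi and -0.55 at 6dpi, and both stages differed from the early one (adjusted p = 0.0027 and 2.1e-06). The GA2OX2 homolog Solyc02g070430, which fell early, was at 0.83 at 4dpi and 0.44 at 6dpi, neither past the test, and again both differed from the early stage (1.96, adjusted p = 0.0041, and 1.57, adjusted p = 0.0355), the second of them not past the threshold with a pseudocount of 0.1 (adjusted p = 0.080). For SP the differences were 0.19 at 4dpi and 0.47 at 6dpi, and the change between stages missed the threshold (adjusted p = 0.062 and 0.091), with 1.07 RPKM in RNAi-SlCLV3 and 0.996 RPKM in WT at 4dpi. AN fell also at 4dpi (-0.60, adjusted p = 0.0117) and was at -0.41 at 6dpi (adjusted p = 0.310). Of the boundary genes 2 of 10 fell at 4dpi and 1 at 6dpi, and of the YABBY genes 1 rose and 1 fell at 4dpi. Over all 20577 genes tested, 555 rose and 157 fell at 4dpi, and 183 rose and 74 fell at 6dpi.

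**Figure D4:**
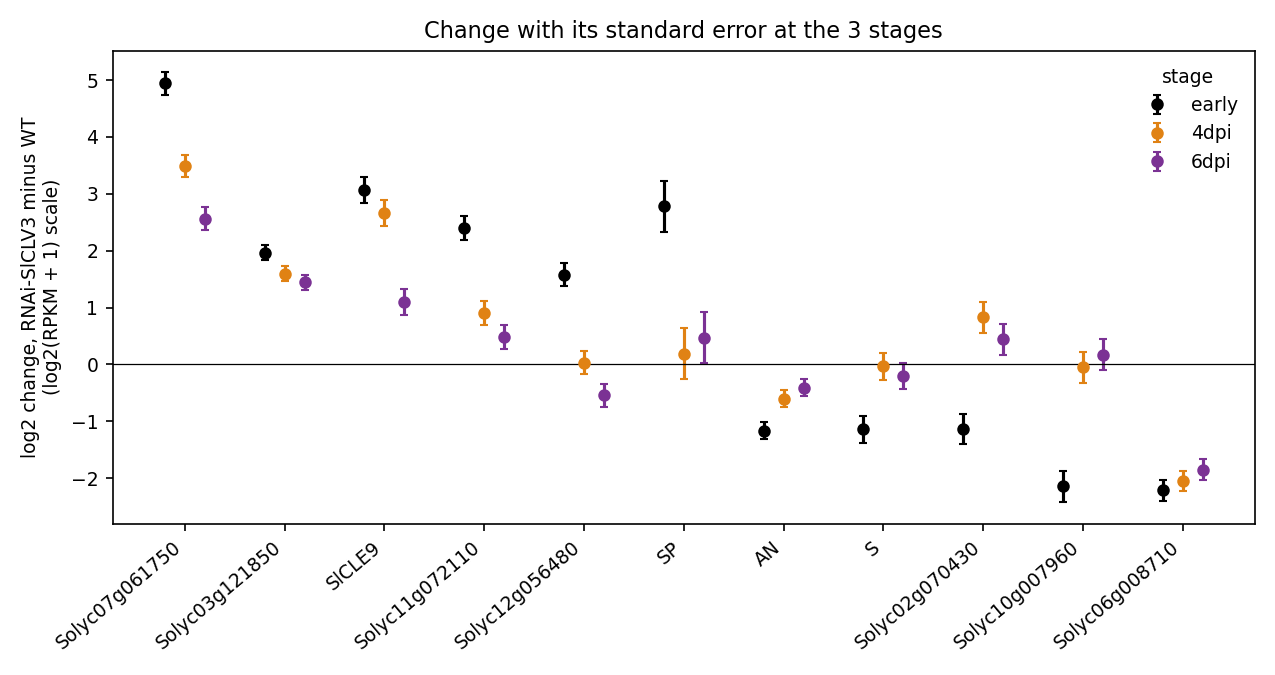
Difference RNAi-SlCLV3 minus WT (log2 scale) with its standard error at the early stage (black), 4dpi (orange) and 6dpi (purple) for 11 named genes. Solyc03g121850 and Solyc06g008710 keep their difference, while Solyc12g056480 and Solyc10g007960 have it at the early stage and lie near 0 at 4dpi, where Solyc10g007960 was hardly detected in either genotype (0.084 RPKM in RNAi-SlCLV3 and 0.123 RPKM in WT).

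The other early genotypes placed these levels. The mean of RNAi-SlCLV3 was above those of all 5 other genotypes in 498 (89.6%) of the 556 risen genes, against 22.1% of all genes tested, and below them in 369 (95.3%) of the 387 fallen genes, against 26.6% of all. The risen and fallen genes were chosen with these RNAi-SlCLV3 libraries, so the shares are a description. AN averaged 22.8 ± 7.07 RPKM in RNAi-SlCLV3, 50.8 in lc, 51.0 in lc/fas, 55.7 in HC2, 52.0 in fas and 50.8 ± 3.62 RPKM in WT, so that RNAi-SlCLV3 alone stood apart. SlCLE9 averaged 28 ± 7.30 RPKM in RNAi-SlCLV3, 2.13 in lc, 13 in lc/fas, 3.20 in HC2, 10.6 in fas and 2.38 RPKM in WT, an order in which lc, WT and HC2 did not differ beyond their spread. SlCLE9 was lower in HC2 than in fas, by 1.49 on the log2 scale (-1.49 ± 0.23, adjusted p = 5.1e-06). SP averaged 8.86 ± 2.94 RPKM in RNAi-SlCLV3, 3.42 in lc, 19.3 ± 9.03 in lc/fas, 5.34 ± 7.22 in HC2, 5.91 ± 2.3 in fas and 0.471 ± 0.574 RPKM in WT. WT was thus the lowest genotype for SP, and the spread within lc/fas and HC2 was wide.

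A set of the most raised genes was high in both transgenic genotypes. Solyc03g044840 averaged 207 ± 22.5 RPKM in RNAi-SlCLV3 and 169 ± 30.4 RPKM in HC2, against 0.339 to 2.68 RPKM in the 4 other genotypes. Solyc07g061750 averaged 44.3 ± 8.08 RPKM in RNAi-SlCLV3 and 28.7 ± 6.82 RPKM in HC2, against 0.557 to 0.977 RPKM in the others. In a comparison that shares no library with that of RNAi-SlCLV3 and WT, 226 genes (1.10%) were higher and 59 (0.287%) lower in HC2 than in fas. By limma the higher ones included Solyc09g089530 (1.52, adjusted p = 0.0020) and Solyc12g056480 (0.80, adjusted p = 0.0176), which rose in RNAi-SlCLV3. Solyc02g080510, which fell there, was also lower in HC2 (-0.94, adjusted p = 0.00031). Opposite directions were seen in SlCLE9, given above, and in Solyc06g008710 (1.51, adjusted p = 3.6e-09). Of the 36 genes raised at least 4-fold in RNAi-SlCLV3, 26 (72.2%) were among those 226, with a median of 1.84 for HC2 minus fas, and 1 was among the 59. Of all 556 risen genes 102 (18.3%) were higher in HC2, which is 45.1% of the 226, and 8 were lower. Of the 112 genes risen at all 3 stages, 50 (44.6%) were higher in HC2. Of the 387 fallen genes, 6 (1.55%) were lower in HC2, against 0.287% of all genes, and 6 (1.55%) were higher, against 1.10% of all. The 6 lower ones are 10.2% of the 59. RNAi-SlCLV3 was built to lower SlCLV3 and HC2 to restore it. At this stage SlCLV3 averaged 5.34 ± 0.293 RPKM in HC2, 4.98 ± 1.09 RPKM in fas and 7.48 ± 2.40 RPKM in WT. HC2 minus fas was 0.10 ± 0.23 (SE), which did not pass the test. What the transformation, the vectors or the ancestry of the transformed plants contributed to the differences shared by both transgenic genotypes cannot be told apart from these data.

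**Figure D5:**
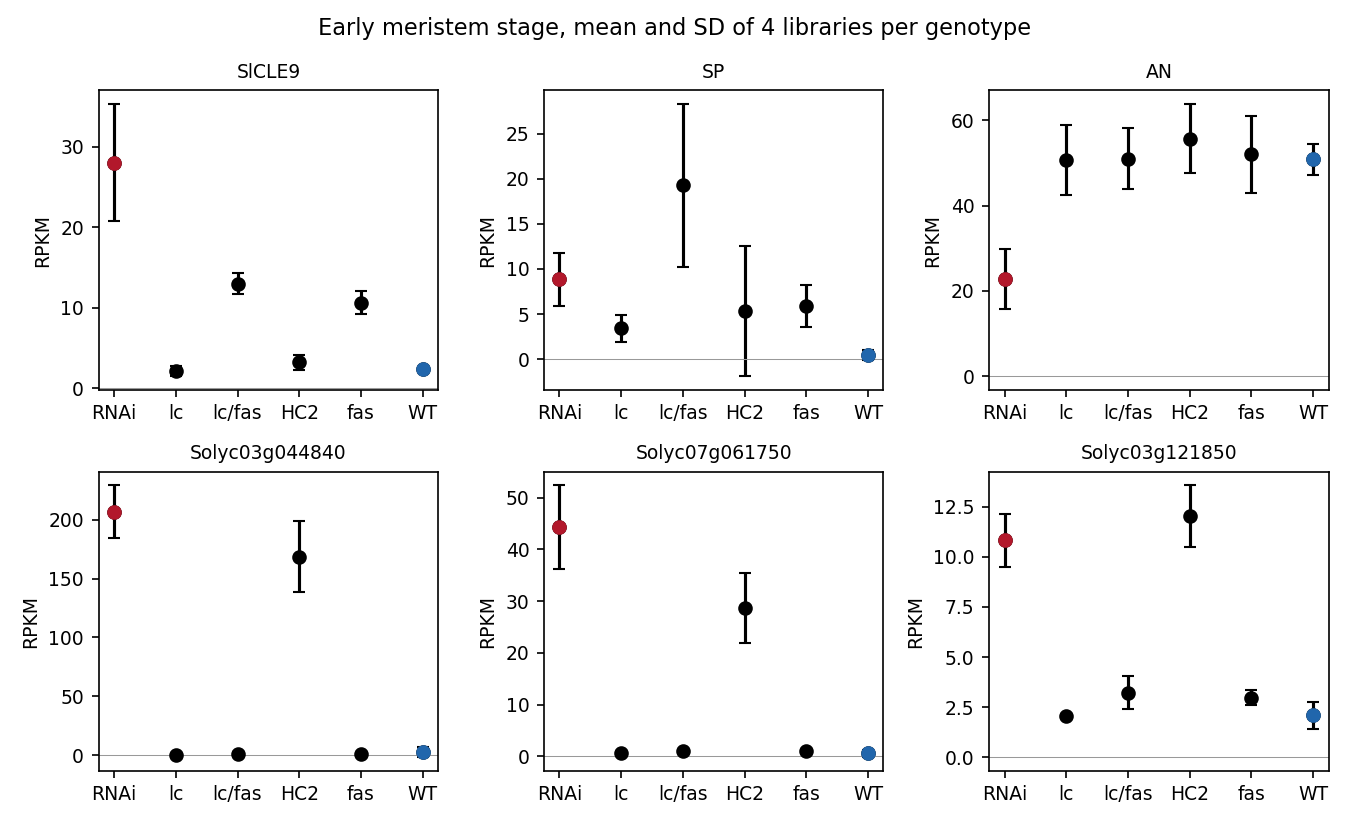
Mean RPKM and SD of 4 libraries in each of the 6 genotypes at the early stage for 6 genes, RNAi-SlCLV3 (red) at the left and WT (blue) at the right. Solyc03g044840, Solyc07g061750 and Solyc03g121850 are high in RNAi-SlCLV3 and HC2 and low in the 4 others, SlCLE9 is highest in RNAi-SlCLV3, and AN is low in RNAi-SlCLV3 only.

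The genes whose identifiers lie nearest that of SlCLV3 on chromosome 11 were also examined. Of 82 such genes, SlCLV3 included, 61 were tested, with a median of 0.04. Among the 61, 5 rose and 1, SlCLV3 itself, fell, against 2.70% and 1.88% of all genes tested. Solyc11g071410 averaged 13 ± 0.67 RPKM in RNAi-SlCLV3 and 6.89 ± 1.07 RPKM in WT (0.84 ± 0.14, adjusted p = 1.9e-05), and Solyc11g071430 averaged 14.0 ± 2.77 and 7.12 ± 1.46 RPKM (0.89 ± 0.17, adjusted p = 0.00017), RNAi-SlCLV3 before WT. Both stayed higher at 4dpi (0.54 and 0.87) and at 6dpi (0.74 and 0.64). Solyc11g071600 had 3.56, 6.72, 4.34 and 2.26 RPKM in RNAi-SlCLV3, against 0.0723, 0.704, 0 and 1.28 RPKM in WT (1.80 ± 0.23, adjusted p = 2.2e-08). Solyc11g071290, an alcohol dehydrogenase family gene, rose by 0.88 (adjusted p = 0.0069), and Solyc11g071540 by 0.26 (adjusted p = 0.0307). Both had overlapping groups, and their calls were lost without RNAi-SlCLV3 replicate 3 or WT replicate 1 (Solyc11g071290, adjusted p up to 0.117) and without RNAi-SlCLV3 replicate 1, 2 or 3 or WT replicate 3 (Solyc11g071540, up to 0.356).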

How the data were processed

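Whole mRNA was sequenced from dissected early meristem tissue of RNAi-SlCLV3 and WT (4 libraries each), within a series of 72 libraries in 18 groups. The deposited values are RPKM per gene, made by the authors from strand-specific single-end reads mapped with TopHat2 and Bowtie2 to the tomato genome with the ITAG annotation, counting sense-strand reads. Depth limits the precision of low genes. It is not stated in the table and was recovered from the step size of low values, of which 99.8% of those under 500 reads came out whole within 0.01 reads. The supplementary tables of the study served only to pair 3820 tomato genes with Arabidopsis loci, and the fold changes and p-values in them were not used.

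RPKM are not counts, so log2(RPKM + 1) was fitted with limma 3.58.1 (R 4.3.3, with a mean-variance trend) over all 72 libraries as 18 group means, which leaves 54 residual degrees of freedom. Genes that reached 1 RPKM in 4 or more libraries were tested, two-sided, with Benjamini-Hochberg adjustment over all of them and a threshold of 0.05. The pseudocount of 1 understates the change of low genes.

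The members, gene lists and tests were chosen with earlier results of these data known. No p is given for a list. Named genes were SlCLV3, SlWUS and SlCLE9, members of the lists, the 12 highest and 12 lowest called genes with an Arabidopsis pairing, groups apart and a mean of at least 2 RPKM in either genotype, the 2 highest and 2 lowest of the same kind without a pairing, and called genes near SlCLV3. List members are tomato genes named in the study or paired there with the Arabidopsis locus of that function, and some were added from general knowledge and are given by identifier only. Alternatives were pseudocounts of 0.1 and 0.5, no filter, a filter at 5 RPKM, median-of-ratios and quantile scaling, the 8 libraries alone, a replicate block and each library left out, and, chosen after seeing the data, WT replicates 3 and 4 left out.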

Additional observations from a re-analysis of the deposited data

Results flagged for a closer look

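In 146 groups of 4 libraries examined for the named genes, 7 had 1 library far from the other 3 by Dixon's criterion, which chance alone gives in about 1 of 20 groups. WT replicate 4 stood apart at 56.2 RPKM for AN (Solyc02g081670), above the rest, and at 13 RPKM for the GA20OX1 homolog Solyc06g035530, below the rest. RNAi-SlCLV3 replicate 3 stood apart at 11.4 RPKM for the LAS homolog Solyc07g066250, below the rest, and at 3.96 RPKM for Solyc02g087860, above the rest. WT replicate 1 was high for FAH1 (Solyc02g084570) at 1.76 RPKM. WT replicate 2 was high for Solyc03g044840 at 8.81 RPKM and for Solyc01g057390 at 3.08 RPKM.

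The difference between RNAi-SlCLV3 and WT changed between the early stage and 4dpi, by a test of that change in limma, for 6 named genes. It was lower at 4dpi by -1.45 for Solyc07g061750 (adjusted p = 0.0041), by -1.50 for Solyc11g072110 (adjusted p = 0.0082), by -2.13 for the Kunitz-type inhibitor gene Solyc03g098710 (adjusted p = 0.0056) and by -1.54 for the stay-green homolog Solyc12g056480 (adjusted p = 0.0027). It was higher at 4dpi by 1.96 for the GA2OX2 homolog Solyc02g070430 (adjusted p = 0.0041) and by 2.09 for Solyc10g007960 (adjusted p = 0.0027), which at 4dpi was at only 0.084 RPKM in RNAi-SlCLV3 and 0.123 RPKM in WT.

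At 6dpi the change from the early stage passed the test for 14 named genes. The difference was lower by -1.97 for SlCLE9 (Solyc06g074060; adjusted p = 0.00021), a change that depended on the pseudocount and was lost with 0.1 (-0.72, adjusted p = 0.927). It was lower by -0.94 for the ATHB15 homolog Solyc08g066500 (adjusted p = 0.0132), by -0.90 for the ARF8 homolog Solyc02g037530 (adjusted p = 0.0207), by -2.38 for Solyc07g061750 (adjusted p = 4.0e-08), by -2.12 for the proteinase inhibitor gene Solyc09g089530 (adjusted p = 0.0131) and by -1.91 for Solyc11g072110 (adjusted p = 9.7e-05). It was also lower by -1.75 for Solyc03g098710 (adjusted p = 0.0344), by -2.12 for Solyc12g056480 (adjusted p = 2.1e-06), by -1.69 for Solyc11g071290 (adjusted p = 0.0012) and by -1.47 for Solyc11g071600 (adjusted p = 0.0164). It was higher by 1.57 for Solyc02g070430 (adjusted p = 0.0355), by 1.69 for Solyc02g093610 (adjusted p = 0.0179), by 1.60 for the KIDARI homolog Solyc05g007210 (adjusted p = 0.0288) and by 2.32 for Solyc10g007960 (adjusted p = 0.00031), which at 6dpi was at 0.137 RPKM in RNAi-SlCLV3 and listed at 0 in WT.

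These changes are on the log2(RPKM + 1) scale. With a pseudocount of 0.1, 15 of the 20 changes passed the test and 5 did not: SlCLE9 (Solyc06g074060) at 6dpi (-0.72, adjusted p = 0.927), Solyc02g070430 at 6dpi (1.64, adjusted p = 0.080), Solyc02g093610 at 6dpi (2.32, adjusted p = 0.068), Solyc05g007210 at 6dpi (1.76, adjusted p = 0.092) and Solyc10g007960 at 4dpi (2.31, adjusted p = 0.600).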

How the results depend on the processing

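The count of called genes, 943, was 255 with the 8 libraries alone (186 higher and 69 lower, 234 of them shared with the 943) and 1769 with a replicate block (966 and 803, all 943 shared), and lay between 701 and 1050 when 1 library was left out, between 684 and 1071 under the filters, pseudocounts and scalings, and at 807 (561 shared) without WT replicates 3 and 4. The replicate numbers are not stated to pair the samples: same-numbered RNAi-SlCLV3 and WT libraries correlated in their deviations at 0.0740 (replicate 4) to 0.373, under 0.1 for 1 of 4 pairs, although 8 of 8 libraries correlated best with their own number. For SlCLV3 the difference was -0.78 (adjusted p = 0.196) with the 8 libraries alone, -0.92 (adjusted p = 0.201) with a pseudocount of 0.1 and -0.85 (adjusted p = 0.084) with 0.5, and it ran from -0.96 to -0.60 when 1 library was left out. For SlWUS it ran from -0.10 (without WT replicate 3) to 0.30 when 1 library was left out, was -0.00 without WT replicate 4 and -0.39 without WT replicates 3 and 4. SlCLE9 kept its direction and call under every alternative. Of the list members 46 were called, against 14 with the 8 libraries alone, 62 with the replicate block and 36 to 46 when 1 library was left out. Genes whose effect differed from the early one numbered 35 at 4dpi, against 21 with a pseudocount of 0.1 and 118 with the replicate block, and 70 at 6dpi, against 199 with the replicate block. The cause of these shifts was not tested, beyond that the fit of 8 libraries has fewer samples. Of 1186 checks of the 70 called genes named besides SlCLV3, SlWUS and SlCLE9, 1051 kept direction and call, 135 lost the call and 0 changed direction. The boundary list had 5 fallen genes, but 1 with the 8 libraries alone, the YABBY list 4, but 0 with the 8 libraries alone, and the sterol list had 1 risen gene, but 6 with the replicate block.

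The shallowest libraries, WT replicates 3 and 4, limit low genes such as SlCLV3 and SP. The smallest differences called were 0.24 for risen and -0.18 for fallen genes.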
